A study of Mus musculus with 4 samples.

Results

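The 7 transcription factors described here, Foxc1, Foxc2, Lmx1b, Tfap2a, Tfap2b, Twist1 and Prrx1, are regulators of cranial neural crest and of the mesenchyme around the eye. They were chosen by name from the 18702 genes in the tables, all 7 were listed in every library, and all 7 passed the filter of a mean of at least 1 FPKM (fragments per kilobase of transcript, scaled to library size) that 13887 genes passed. The libraries were made from total RNA of eye tissue of C57BL/6 mouse embryos, 2 from the wild type (Anp32b+/+) and 2 from embryos without functional Anp32b (Anp32b-/-), a gene for a histone-binding nuclear protein. No other allele or agent is named for either group. The sources used here do not give embryonic age, sex, the make of the null allele or the number of embryos in a library. Separate embryos are not stated for the 2 libraries of a group, so every p-value rests on a spread that may be technical.

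Periocular mesenchyme is a loose tissue, mostly of neural crest origin, that migrates between the optic cup and the surface ectoderm. There it gives rise to the corneal stroma and endothelium, the drainage angle, the stroma of the iris, the sclera and much of the orbit. FOXC1, FOXC2 and LMX1B act within it during formation of the anterior segment, and human FOXC1 and LMX1B variants cause anterior segment disease and glaucoma. TWIST1 and PRRX1 are general regulators of craniofacial mesenchyme. The AP-2 proteins TFAP2A and TFAP2B act in the neural crest too, and are also known from amacrine and horizontal cells of the retina, and TFAP2A from surface ectoderm and lens epithelium.

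Upstream sequences are shown for 4 members that moved in opposite directions, so that they can be set side by side: Twist1, Prrx1 and Foxc1 were higher in the knockout and Tfap2b was lower. They come from RefSeq on GRCm38.p6, which held 7 start sites for 6 of the members, all but Foxc2. Each runs 5′ to 3′ from 250 bases before the transcript start and ends at the start or at the first annotated exon. The windows of Tfap2b and Tfap2a lie inside these genes as annotated in GENCODE, downstream of the outermost start. Capitals mark matches on either strand to motif letters, which were searched in the whole 250 bases. The AP-2 letters were GCCNNNGGC. Those of the E-box, bound by helix-loop-helix proteins, were CANNTG. Forkhead letters were TGTTTAC, as FOX proteins bind them. Homeodomain letters were TAATTA, the core bound by many such proteins. The GC box was searched as GGGCGG, which zinc finger factors bind. The remaining motifs were CCAAT and the TATA box as TATAAA.
Twist1, chr12:33957421-33957670, plus strand: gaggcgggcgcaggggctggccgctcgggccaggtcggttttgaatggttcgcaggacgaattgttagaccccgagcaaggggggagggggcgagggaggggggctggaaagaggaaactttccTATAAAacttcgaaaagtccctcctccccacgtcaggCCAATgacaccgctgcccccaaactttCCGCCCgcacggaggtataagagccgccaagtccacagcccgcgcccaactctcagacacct
Prrx1, chr1:163313711-163313900, minus strand: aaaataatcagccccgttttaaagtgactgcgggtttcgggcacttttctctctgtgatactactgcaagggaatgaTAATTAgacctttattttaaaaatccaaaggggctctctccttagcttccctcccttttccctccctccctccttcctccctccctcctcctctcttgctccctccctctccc
Foxc1, chr13:31806396-31806632, plus strand: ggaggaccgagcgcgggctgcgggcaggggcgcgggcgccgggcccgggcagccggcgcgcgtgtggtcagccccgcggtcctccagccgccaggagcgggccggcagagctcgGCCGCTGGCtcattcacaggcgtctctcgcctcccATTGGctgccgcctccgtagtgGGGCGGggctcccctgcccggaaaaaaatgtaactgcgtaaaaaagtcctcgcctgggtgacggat
Tfap2b, chr1:19211804-19212053, plus strand: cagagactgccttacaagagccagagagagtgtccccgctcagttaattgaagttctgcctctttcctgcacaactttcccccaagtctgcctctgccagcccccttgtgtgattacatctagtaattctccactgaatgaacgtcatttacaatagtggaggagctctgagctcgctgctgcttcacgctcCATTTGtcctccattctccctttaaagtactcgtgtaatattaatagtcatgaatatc
The GC content of the 250 bases was 62.4% for Twist1, 70.8% for Foxc1, 65.2% for Lmx1b, 47.6% for Prrx1 and 46.4% for Tfap2b. It was 47.6% for the first and 60.4% for the second start of Tfap2a, against a median of 52.4% over 32851 promoters of the table. Base composition therefore did not separate the members that were higher from those that were lower. Foxc1 held the only AP-2 match among the members, at 136 bases before the start, and 13.7% of all promoters hold one. Its GC box and CCAAT box lay at 79 and 101 bases. Twist1 held a TATA box match at 126, a CCAAT box at 89 and a GC box at 62 bases before the start. Such letters are common, since 12.4% of all promoters hold the TATA box, 33.8% the CCAAT box and 32.7% the GC box. Prrx1 held 1 homeodomain match at 173 bases and Tfap2b 1 E-box match at 58 bases, which 4.84% and 66.2% of all promoters hold. The forkhead letters, in 3.17% of all promoters, were in none of the 7 member windows. No 2 of these motif types have letters that overlap in the 4 stretches shown.

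Whole-library facts that bear on these genes were few. Low FPKM values of short genes lay on steps that placed the depth between 17980000 and 18280000 fragments, with no library apart from the others. Anp32b had 163.18 and 179.12 FPKM in the wild type and 94.53 and 92.67 FPKM in the knockout, lower in both libraries labelled as knockout. The knockout mean was still 54.7% of that of the wild type, so RNA of the gene was not absent. The tissue markers also differed between the groups. The 14 lens genes summed to between 40516 and 41388 FPKM in the wild type and to between 3982 and 3991 FPKM in the knockout. Because FPKM is set relative to all fragments of a library, the members were also read under 3 other scalings. These were TPM, median-of-ratios factors, and a sum that leaves out crystallin and erythroid genes (the reduced sum). The median log2 fold change of all tested genes was 0.038 with FPKM and 0.156 with TPM, so TPM values read higher for most genes, by amounts that differ between genes.

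Of the 7 members, 5 were higher and 2 lower in the knockout, in limma on log2(FPKM + 1) with Benjamini-Hochberg adjustment over all 13887 genes. Twist1 and Prrx1 rose the most, Foxc2, Foxc1 and Lmx1b less, and Tfap2a and Tfap2b fell. Among all genes tested the same rule called 54.6%, 33.5% higher and 21.1% lower, so a call alone is common in this comparison. TPM gave 5 members higher and 1 lower, beside 49.9% and 12% of all genes. Median-of-ratios factors gave 5 and 2 members, beside 27.9% and 27.3%, and the reduced sum 5 and 2, beside 25.4% and 31.2%. The groups did not overlap for any of the 7, as for 77.9% of all genes. The median log2 fold change was 0.65 over the 7 and 0.04 over all genes. A change of at least 1 on the log2(FPKM + 1) scale, which 2.35% of all genes reached, was reached by Twist1 and Prrx1. Foxc2 did not reach it there (0.83), but the added 1 weighs more on low genes. It read 1.09 with 0.1 added in place of 1, and 1.08 with TPM. The sizes separate the members more than the calls do: only 33 of the tested genes had a larger log2 fold change than Twist1 and 55 a larger one than Prrx1, against 2035 for Lmx1b. In bulk tissue, a different number of cells of a type and a different amount of RNA per cell cannot be told apart.

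**Figure D1:**
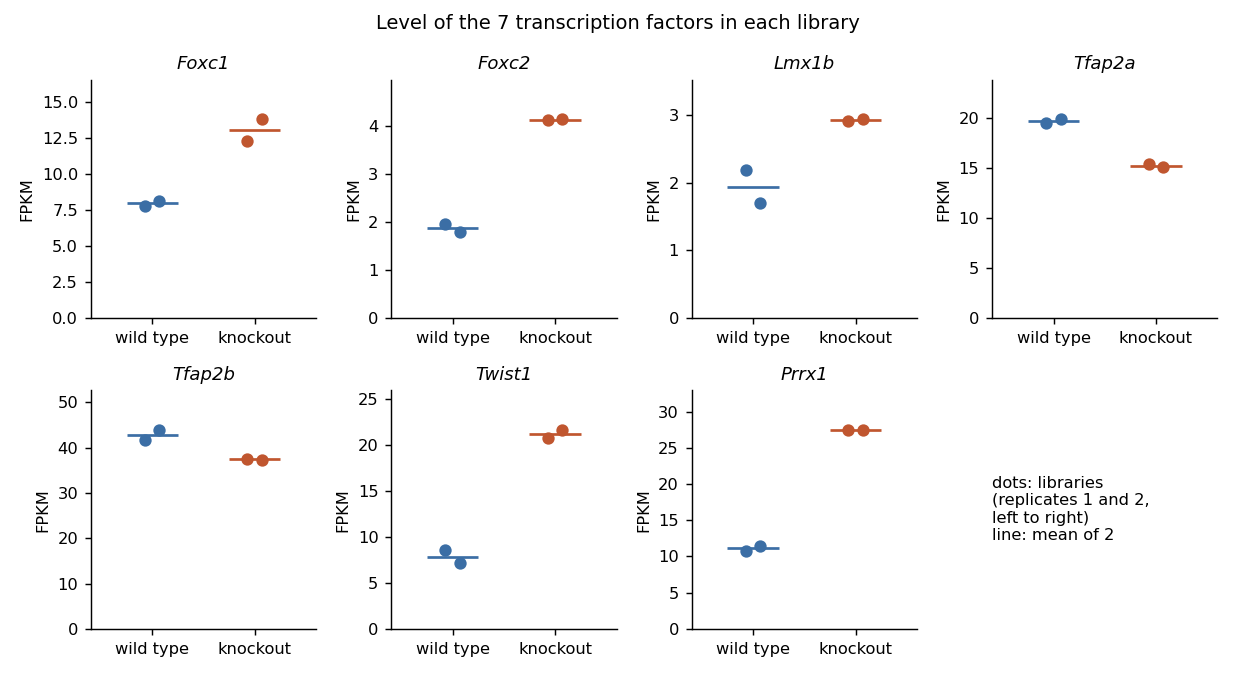
FPKM of each of the 7 genes (y axis, from 0) in the 2 wild-type and 2 knockout libraries; dots are libraries and lines are means of 2. The knockout dots lie above the wild-type dots in 5 panels and below them in the panels of Tfap2a and Tfap2b.

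In the wild type the order of levels, which FPKM allows because it is per length, was Tfap2b, Tfap2a, Prrx1, Foxc1, Twist1, Lmx1b and Foxc2. The mean FPKM of these genes ran from 42.8 ± 1.53 for Tfap2b to 1.89 ± 0.12 for Foxc2 (SD, n = 2). Neighbours in this order differed by more than the spread of their libraries except for Foxc1 with Twist1 and Lmx1b with Foxc2, whose values interleaved. In the knockout the order was Tfap2b, Prrx1, Twist1, Tfap2a, Foxc1, Foxc2 and Lmx1b, and no neighbours overlapped. Prrx1 and Twist1 thus stood below Tfap2a in both wild-type libraries and above it in both knockout libraries. Of the summed FPKM of the 7, the AP-2 pair made up 66.9% ± 1.15 in the wild type and 43.4% ± 0.79 in the knockout (SD, n = 2).

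Twist1 (Entrez 22160, GRCm38 chromosome 12, positions 33957671 to 33959829, plus strand) encodes a basic helix-loop-helix factor of mesenchyme that is needed for closure of the cranial neural tube and for normal skull sutures. Wild-type replicates 1 and 2 had 8.58 and 7.16 FPKM, and knockout replicates 1 and 2 had 20.72 and 21.60 FPKM. Both knockout values were far above either wild-type value, and the wild-type libraries differed from each other more than the knockout libraries did. The mean was 2.69-fold higher, and the change on the log2(FPKM + 1) scale was 1.33 with an SE of 0.08 (limma adjusted p = 1.66e-05). Its paralog Twist2, with known roles in dermal mesenchyme, went from 4.20 and 4.32 FPKM to 10.43 and 11.10 FPKM (log2 fold change 1.16, adjusted p = 8.69e-06). Twist1 made up 67.1% and 62.4% of the Twist1 and Twist2 sum in the wild type and 66.5% and 66.1% in the knockout, values that interleaved.

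Prrx1 (Entrez 18933, chromosome 1, positions 163245119 to 163313710, minus strand) encodes a paired-related homeodomain protein of limb and craniofacial mesenchyme. Levels were 10.81 and 11.48 FPKM in the wild type and 27.44 and 27.43 FPKM in the knockout. The knockout libraries were nearly identical and lay far above the wild type, with a 2.46-fold higher mean and a log2 fold change of 1.23 (SE 0.04, limma adjusted p = 2.4e-06). Its paralog Prrx2 rose alongside it, from 4.99 and 5.06 FPKM to 12.92 and 11.56 FPKM (log2 fold change 1.13, adjusted p = 1.49e-05). The share of Prrx1 in the sum of both paralogs was 68.4% and 69.4% in the wild type and 68.0% and 70.4% in the knockout, again without separation. The antisense gene Gm20471 and, on the same strand as Prrx1, Gm26523 and Gm37644 overlap it in GENCODE. No source used here says whether the authors counted by strand.

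Foxc1 and Foxc2 encode forkhead proteins with nearly the same DNA-binding domain and overlapping roles in the eye, vessels and skeleton. Foxc1 (Entrez 17300, chromosome 13, positions 31806633 to 31812476, plus strand, a single exon) had 7.77 and 8.16 FPKM in the wild type and 12.33 and 13.79 FPKM in the knockout. Foxc2 (Entrez 14234, chromosome 8, positions 121116171 to 121118895, plus strand, also a single exon) had 1.97 and 1.80 FPKM in the wild type and 4.13 and 4.14 FPKM in the knockout. Both genes were higher in both knockout libraries, and Foxc1 was the more abundant in all 4 libraries. On the log2(FPKM + 1) scale Foxc1 differed by 0.65 (SE 0.06, limma adjusted p = 0.000173) and Foxc2 by 0.83 (SE 0.07, limma adjusted p = 0.000119). The mean FPKM was 1.64-fold and 2.19-fold higher. The 2 measures differ more for Foxc2, as the added 1 is large beside its low values. The values of Foxc2 correspond to an estimated 98 and 89 fragments in the wild type and 202 and 204 in the knockout, if its annotated transcript of 2725 bases was the one counted. Another gene model, Gm20388, overlaps Foxc2 on the same strand. Within the pair, Foxc1 contributed 79.8% and 81.9% of the FPKM sum in the wild type and 74.9% and 76.9% in the knockout. The share was lower in both knockout libraries, with a mean difference of −4.94 percentage points (exact permutation test, two-sided, p = 0.333, the smallest that 2 against 2 libraries can give).

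Lmx1b (Entrez 16917, chromosome 2, positions 33560965 to 33640511, minus strand) encodes a LIM homeodomain protein of periocular mesenchyme, dorsal limb and kidney podocytes. It was the least certain of the higher members, with 2.18 and 1.70 FPKM in the wild type and 2.91 and 2.93 FPKM in the knockout. The 2 wild-type libraries differed from each other far more than the 2 knockout libraries did. On the log2 scale it differed by 0.42, with a 95% interval from 0.19 to 0.65 (SE 0.10, limma adjusted p = 0.01). The limma adjusted p became 0.0677 when knockout replicate 1 was omitted and 0.0706 when replicate 2 was, so the call was lost at an unchanged 0.42, where a lone knockout library is assumed to vary like the wild type. Over all alternatives its adjusted p ran from 0.0033 to 0.0706. Lmx1a, its paralog, known from the roof plate and midbrain, went from 1.56 and 1.45 FPKM to 2.22 and 2.45 FPKM.

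Tfap2a (Entrez 21418, chromosome 13, positions 40715302 to 40738376, minus strand) fell. Its level was 19.47 and 19.84 FPKM in the wild type and 15.35 and 15.12 FPKM in the knockout. Both knockout libraries lay below both wild-type libraries, with little spread within a group. The knockout mean was 77.5% of that of the wild type, or −0.35 on the log2 scale with an SE of 0.04 (limma adjusted p = 0.000329). Several antisense genes of GENCODE overlap the gene, so reads of either strand may be counted in its value.

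Tfap2b (Entrez 21419, chromosome 1, positions 19208914 to 19238576, plus strand), the most abundant of the 7, fell by less. Wild-type libraries had 41.68 and 43.84 FPKM and knockout libraries 37.56 and 37.21 FPKM. The groups did not overlap, and the wild-type libraries differed from each other more than the knockout libraries did. On the log2 scale the difference was −0.19 (SE 0.04, limma adjusted p = 0.0041). With the deposited TPM values its log2 fold change was −0.07 (adjusted p = 0.13) and the call was lost, within a range of adjusted p from 0.000516 to 0.13 over all alternatives. It was called lower at −0.24 with median-of-ratios factors and at −0.27 with the reduced sum.

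The AP-2 family as a whole has 5 genes, and they did not move as 1 group. Tfap2c, which acts in placenta, germ cells and ectoderm, rose from 7.36 and 7.45 FPKM to 9.34 and 8.80 FPKM (log2 fold change 0.26, adjusted p = 0.0055), under all 4 scalings. Tfap2d, the neighbour of Tfap2b on chromosome 1, had 4.69 and 4.77 FPKM in the wild type and 4.36 and 4.15 FPKM in the knockout and was not past the threshold, except with the reduced sum, where it was called lower (−0.19). Tfap2e had 2.43 and 1.98 FPKM and then 1.19 and 1.69 FPKM, a difference of −0.40 (limma adjusted p = 0.0334) that was the same size with TPM but not past the threshold there. Of the summed FPKM of these 5 genes, Tfap2a made up 25.6% ± 0.19 in the wild type and 22.6% ± 0.04 in the knockout, Tfap2b 55.7% ± 0.84 and 55.5% ± 0.12, and Tfap2c 9.65% ± 0.12 and 13.5% ± 0.45 (SD, n = 2). Between Tfap2a and Tfap2b alone, the Tfap2a share was 31.8% and 31.2% in the wild type and 29.0% and 28.9% in the knockout, a difference of −2.55 percentage points (exact permutation test, two-sided, p = 0.333, the smallest possible).

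**Figure D2:**
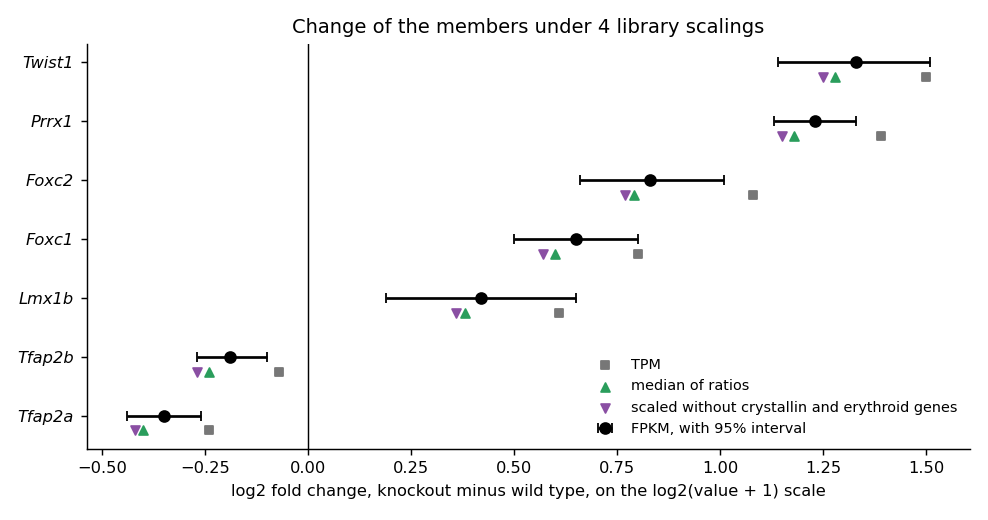
Log2 fold change of each member, knockout minus wild type, on the log2(value + 1) scale (x axis); black points are the FPKM fit with 95% intervals and coloured symbols are 3 other library scalings. No symbol crosses 0, and Tfap2b with TPM is closest to it at −0.07.

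Genes that mark cells in which the AP-2 genes are known to act moved in different directions. The 12 amacrine and horizontal cell markers, inhibitory interneurons of the retina, had 7 lower and 2 higher, with a median log2 fold change of −0.26 and a summed level of 185 to 189 FPKM in the wild type and 122 to 123 FPKM in the knockout. With TPM 5 were lower and 3 higher. Over all genes 21.1% were lower and 33.5% higher, and 12% and 49.9% with TPM. The 2 higher markers, named after their values were seen, were Gad2 and Slc6a9. Gad2 rose from 10.83 and 10.13 FPKM to 14.26 and 13.16 FPKM (log2 fold change 0.36). Slc6a9 rose by less (0.14) and was not past the threshold with median-of-ratios factors or the reduced sum. Calb2, which encodes the calcium-binding protein calretinin, fell from 61.96 and 61.71 FPKM to 23.98 and 23.87 FPKM (log2 fold change −1.33). Prox1, a homeobox gene of horizontal cells, lens fibres and lymphatic vessels, fell from 22.16 and 21.79 FPKM to 10.25 and 10.64 FPKM (−1.01). Calb2 alone made up most of the fall of the sum. Surface epithelium went the other way, with 12 of 14 markers higher and 1 lower, and a sum of 691 to 718 FPKM in the wild type and 1344 to 1348 FPKM in the knockout. The lower marker, named after its value was seen, was the keratin Krt12 (log2 fold change −0.24). Krt12 went from 31.20 and 31.59 FPKM to 26.02 and 26.83 FPKM. Perp, a desmosome-associated gene of stratified epithelium, rose from 35.50 and 35.36 FPKM to 67.23 and 66.62 FPKM, and the keratin Krt17 from 13.28 and 13.09 FPKM to 45.32 and 44.25 FPKM. Tfap2a relative to this sum was 2.82% and 2.76% in the wild type and 1.14% and 1.12% in the knockout. Lens genes, of which all 14 were lower, fell far more than Tfap2a, which was 0.0481% and 0.0479% of their sum in the wild type and 0.386% and 0.379% in the knockout. None of the 3 lists had a marker at 0 in all libraries, and the part of these cell types in the AP-2 values was not tested.

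General mesenchyme markers rose together with the 5 higher members. Of 16 such markers 15 were higher and 1, Thy1, which retinal ganglion cells also express, was lower, with a median log2 fold change of 0.98 and a sum of 2222 to 2256 FPKM in the wild type and 4474 to 4502 FPKM in the knockout. The counts were the same under all 4 scalings. With FPKM 33.5% of all genes were higher and 21.1% lower. Lum, the stromal proteoglycan lumican, stood at 76.89 and 77.04 FPKM and then at 172.90 and 176.49 FPKM, and Col1a1, the main fibrillar collagen, at 321.69 and 318.48 FPKM and then at 715.33 and 712.95 FPKM. A ratio of a member to this sum within a library does not depend on library scaling. For Twist1 it was 0.38% and 0.322% in the wild type and 0.463% and 0.48% in the knockout, and for Prrx1 0.479% and 0.517% and then 0.613% and 0.609%. Both ratios were higher in both knockout libraries, 1.34-fold and 1.23-fold on the means (exact permutation test, two-sided, p = 0.333 for each, the smallest possible). For Foxc2 the ratio was 0.0873% and 0.081% in the wild type and 0.0923% and 0.092% in the knockout, a 1.09-fold higher mean. Foxc1 went from 0.344% and 0.367% to 0.276% and 0.306%, and Lmx1b from 0.0966% and 0.0765% to 0.065% and 0.0651%. The rise of both in FPKM was smaller than that of the marker sum. The ratios of Tfap2a and Tfap2b fell to 0.387 and 0.436 of their wild-type means.

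Since collagens made up most of that sum, the ratios were also taken against the 8 markers that are not collagens. Of these, Vim was the most abundant, at 418.76 and 415.82 FPKM in the wild type and 615.10 and 628.95 FPKM in the knockout. Its rise, 1.49-fold on the means, was smaller than that of each other marker but Thy1, which fell. The ratios below therefore rest largely on Vim, and none was taken without it. Twist1 (1.55-fold), Prrx1 (1.42-fold) and Foxc2 (1.27-fold) again stood above the wild type in both knockout libraries. Foxc1 had 0.916% and 0.959% in the wild type and 0.847% and 0.929% in the knockout, so its groups overlapped with this choice of markers. Lmx1b had 0.257% and 0.2% and then 0.2% and 0.197%, and its groups overlapped too. The sum of all 7 members relative to the whole marker sum was 4.1% and 4.23% in the wild type and 2.69% and 2.71% in the knockout, a difference of −1.46 percentage points, and −2.72 against the markers that are not collagens (exact permutation test for the first, two-sided, p = 0.333, the smallest possible). Markers of other tissues differed as well, and their counts stand beside 33.5% higher and 21.1% lower over all genes. Skeletal muscle genes rose in 12 of 12 cases, with a summed level of 1546 to 1642 FPKM in the wild type and 3238 to 3293 FPKM in the knockout, as were all 9 tested of 10 macrophage genes, from 66.0 to 72.8 FPKM and 120 to 130 FPKM. Of 7 tested erythroid genes 6 were higher and 0 lower, and of 12 retinal progenitor genes 9 were lower and 1 higher, with sums of 1559 to 1569 FPKM and 1060 to 1069 FPKM. None of these lists had a marker at 0 in all libraries, and their part in the member values was not tested.

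**Figure D3:**
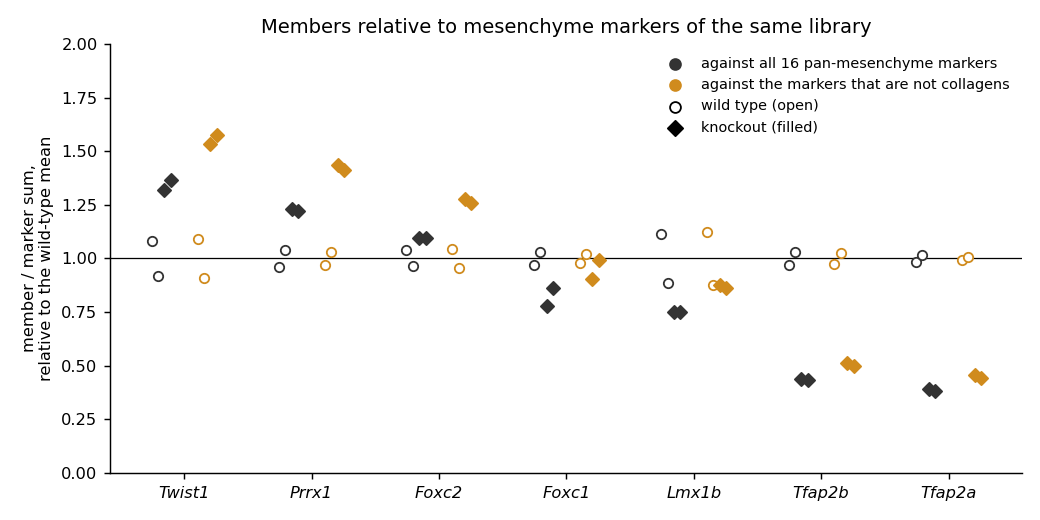
Ratio of each member to the summed FPKM of mesenchyme markers in the same library, divided by the wild-type mean (y axis, from 0); open circles are wild-type and filled diamonds knockout libraries, in black for all 16 markers and in orange for those that are not collagens. Twist1 and Prrx1 lie above 1 with both marker sums, Tfap2a and Tfap2b below, and Foxc1 and Lmx1b overlap with the wild type only with markers that are not collagens.

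Other regulators of periocular mesenchyme and the anterior segment mostly rose. Of 22 listed genes 21 were tested, 15 were higher, 5 lower and 1 not past the threshold, with a median log2 fold change of 0.71, beside 33.5% higher and 21.1% lower over all genes. Rarg, a retinoic acid receptor of this mesenchyme, went from 11.35 and 11.44 FPKM to 25.10 and 24.16 FPKM (1.05, adjusted p = 3.31e-06). Tbx15, a T-box gene of craniofacial and limb mesenchyme, went from 7.96 and 8.61 FPKM to 18.28 and 17.79 FPKM (1.04), and Dkk2, a Wnt antagonist of the corneal and lid region, from 9.35 and 8.87 FPKM to 17.73 and 17.62 FPKM (0.89). All 3 were higher in both knockout libraries. The 5 that fell, named after their values were seen, were Foxd1 (−1.05), Cyp1b1 (−0.67), Msx1 (−0.32), Meis2 (−0.22) and Meis1 (−0.21). Foxd1, a forkhead gene of temporal retina and of stroma, went from 6.97 and 7.21 FPKM to 2.63 and 3.21 FPKM. Cyp1b1, a cytochrome gene of congenital glaucoma, went from 13.17 and 11.84 FPKM to 7.38 and 7.54 FPKM. Tgfb2, a growth factor that acts on this mesenchyme, missed the threshold with FPKM and TPM and was called lower under the other scalings. Msx2 was below the level tested.

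Neural crest specifiers gave a similar count with smaller changes. Of 16 listed genes 15 were tested, 13 were higher and 1 lower, with a median of 0.33. Over all genes 33.5% were higher and 21.1% lower. With the reduced sum 10 were higher, beside 25.4% of all genes. Snai2, a zinc finger factor of crest emigration, went from 3.82 and 3.87 FPKM to 9.19 and 9.44 FPKM (1.09, adjusted p = 9.7e-06). Sox10, a factor of crest-derived glia and pigment cells, went from 7.85 and 8.20 FPKM to 13.18 and 13.53 FPKM (0.67), and Ets1, expressed in cranial crest and endothelium, from 6.58 and 6.57 FPKM to 11.35 and 11.32 FPKM (0.70). Dlx5, a homeobox gene of the jaw arches and of bone-forming cells, was low in the wild type, at 0.09 and 0.20 FPKM, and stood at 2.29 and 2.35 FPKM in the knockout (1.54). Of 11 Schwann cell and melanocyte markers, both crest-derived in part, 5 were higher and 4 lower, with a median of 0.11. These are 45.5% and 36.4%, beside 33.5% and 21.1% of all genes. Erbb3, a receptor gene of glial precursors, went from 5.19 and 4.91 FPKM to 10.46 and 10.55 FPKM (0.93), while Pmel, a pigment granule gene of melanocytes and retinal pigment epithelium, fell from 206.43 and 208.32 FPKM to 158.28 and 158.84 FPKM (−0.39). The other lower genes were the pigment genes Dct, Mlana and Tyrp1, named after their values were seen. The crest specifier that fell was Mycn (−0.35), named after its value was seen. Of 12 bone and cartilage markers 9 were higher and 2 lower, with a sum of 163 to 167 FPKM in the wild type and 290 to 293 FPKM in the knockout. The bone matrix genes Spp1 (12.76 and 11.92 to 85.56 and 87.78 FPKM) and Ibsp (1.13 and 0.77 to 49.27 and 49.14 FPKM) had the lowest p-values of that list and made up nearly all of the rise of its sum. The lower genes, named after their values were seen, were the cartilage collagens Col2a1 (61.34 and 59.36 to 49.15 and 49.10 FPKM) and Col9a1 (79.68 and 78.85 to 70.85 and 73.25 FPKM). Cartilage genes did not all fall. Acan (0.57 and 0.72 to 2.06 and 2.20 FPKM), Sox5 (0.31) and Sox6 (0.30), also named after their values were seen, were higher. Col10a1 (−0.27) was not past the threshold except with the reduced sum, where it was called lower. The part of bone and cartilage in the values of Twist1, Prrx1 and Dlx5 was not tested.

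Genes whose products pair with the members gave mixed calls. Of 14 tested partners and cofactors, from 15 listed, 6 were higher, 3 lower and 5 not past the threshold, with a median of 0.12. These are 42.9% higher and 21.4% lower, beside 33.5% and 21.1% of all genes, so the lower share was that of all genes. With TPM 10 were higher, as were 49.9% of all genes. The Id proteins, which hold E proteins away from TWIST1, accounted for all 3 lower genes. Id1 went from 60.53 and 57.65 FPKM to 43.65 and 40.46 FPKM (−0.48, adjusted p = 0.000146), Id2 from 83.09 and 87.40 FPKM to 63.80 and 67.56 FPKM (−0.37), and Id4, named after its value was seen, fell by less (−0.25). Id3 was higher (0.15), but not past the threshold with the reduced sum. Among E proteins, the partners of TWIST1 in dimers, Tcf4 rose from 32.45 and 32.31 FPKM to 39.04 and 39.02 FPKM (0.26). The AP-2 coactivator Cited2 rose from 31.73 and 31.90 FPKM to 37.25 and 36.64 FPKM (0.21). The LIM-domain-binding factor Ldb1, a partner of LMX1B, had 141.59 and 140.32 FPKM and then 148.74 and 144.53 FPKM and was not past the threshold except with TPM. Hand2, another possible partner of TWIST1, was at 0 in 3 libraries.

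Of 16 genes that are known to respond to FOXC1, FOXC2, TWIST1 or PRRX1, or that mark the passage of epithelium to mesenchyme, 12 were higher and 3 lower, with a median of 0.55, and 11 were higher with median-of-ratios scaling, as Zeb2 was not past the threshold. Over all genes 33.5% were higher and 21.1% lower, and 27.9% were higher with median-of-ratios scaling. Postn, the matrix protein periostin, went from 198.57 and 192.27 FPKM to 430.19 and 435.42 FPKM (1.14, adjusted p = 7.64e-07), and Tnc, tenascin C, from 7.66 and 7.85 FPKM to 17.88 and 17.90 FPKM (1.11). Cdh2, the N-cadherin of retina, lens and mesenchyme, fell from 95.05 and 95.88 FPKM to 64.73 and 63.62 FPKM (−0.57). The other lower genes, named after their values were seen, were the chemokine receptor gene Cxcr4 (−0.64) and the Notch ligand gene Dll4 (−0.22, not past the threshold with TPM). Col1a1, Pdgfra and Pdgfrb stand in both this list and that of the general mesenchyme markers.

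**Figure D4:**
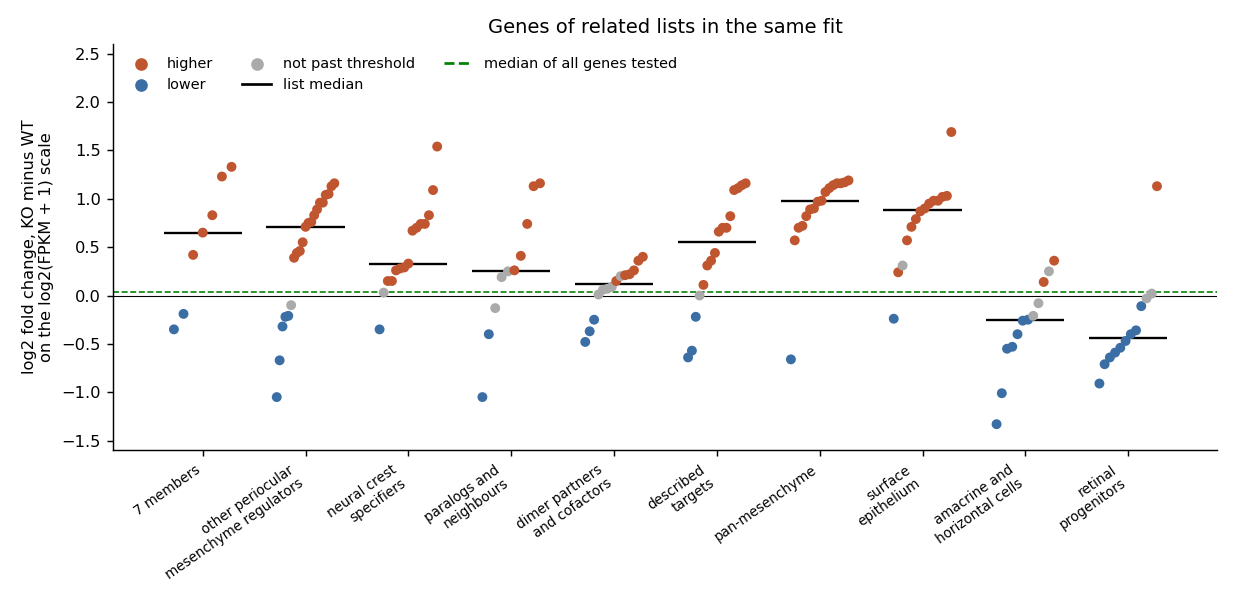
Log2 fold change, knockout minus wild type, of each tested gene (dots, y axis) in the members and 9 related lists; colours give the call, black lines the list medians and the dashed line the median of all genes tested. The periocular mesenchyme and pan-mesenchyme medians are 0.71 and 0.98, and those of amacrine and horizontal cells and of retinal progenitors are below 0.

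Marker genes of tissues that the members help to build were mostly higher for corneal stroma, drainage angle and vessels, and mixed for corneal endothelium. Over all genes 33.5% were higher and 21.1% lower, and 25.4% were higher with the reduced sum. Of 13 corneal stroma genes 10 were higher and 1 lower (median 0.79), led by Lum and by Dcn, the proteoglycan decorin (177.72 and 181.57 to 373.98 and 384.30 FPKM). Lum, Dcn and Col5a1 also stand in the list of general mesenchyme markers, so these lists are not separate. Of 11 tested drainage angle genes 9 were higher and 1 lower (median 0.58), with Ltbp2, a microfibril gene linked to glaucoma, at 6.12 and 5.66 FPKM and then 14.89 and 14.72 FPKM, and Mfap5, another microfibril gene, at 47.07 and 47.00 FPKM and then 76.20 and 76.22 FPKM. Myoc, the myocilin gene of the trabecular meshwork, was below the level tested. Of 7 tested corneal endothelium genes 5 were higher and 2 lower (median 0.15, and 3 higher with the reduced sum). Cdh2, its most abundant gene in the wild type and that of smallest p, fell (−0.57), and the sum of the list was 296 to 297 FPKM in the wild type and 299 to 301 FPKM in the knockout. Col8a2, a collagen of the basement membrane, went from 26.94 and 27.02 FPKM to 36.07 and 35.55 FPKM. Slc4a11, a transporter that defines that cell layer, was below the level tested. Vessel and lymphatic genes, relevant because FOXC1 and FOXC2 act in both, had 11 of 14 higher and 2 lower (median 0.68) and a sum of 199 to 200 FPKM in the wild type and 232 to 236 FPKM in the knockout. Pecam1, an endothelial adhesion gene, went from 11.71 and 12.14 FPKM to 22.78 and 23.93 FPKM. The lower genes were Prox1, with the smallest p of the list and the values given above, and the receptor gene Kdr, its most abundant gene, which went from 61.49 and 61.60 FPKM to 48.91 and 46.21 FPKM (−0.37) and is named after its value was seen.

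The profile of each member over the 4 libraries was compared with the 218 tested genes of the lists used here, by Euclidean distance between log2(FPKM + 1) values after subtraction of the wild-type mean. With 4 libraries and 2 groups this likeness is little more than a similar size of change. Closest to Prrx1 were Col1a2 (distance 0.089) and Lum (0.098), and closest to Twist1 were Ltbp2 (0.21) and Lyz2 (0.234), a gene of macrophages. Foxc1 was nearest to Runx2 (0.046), the regulator of bone formation, and Hbb-bs (0.077), an adult globin gene with a near-identical copy. Foxc2 was nearest to Six2 (0.067) and Myod1 (0.07), and Lmx1b to Flt4 (0.066) and Cited4 (0.128). Tfap2a was nearest to Kdr (0.052) and Msx1 (0.057), and Tfap2b to Meis1 (0.038) and Ptgds (0.064). Neighbours by profile thus came from unlike cell types, such as blood, bone, muscle and vessels.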

How the data were processed

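RNA sequencing of eye tissue gave 4 libraries, 2 wild type and 2 knockout, grouped and numbered by the titles in the labels. FPKM values of each library stand in the tables the authors deposited. TPM values stand beside them, per the file headers. Cufflinks, DESeq, HISAT2 and TopHat, with the builds GRCm38 and GRCh38, are named in the submitters' processing notes without versions or roles. Annotation, filters and strand use are likewise not given in the sources used. Entrez numbers gave back 26 symbols that read as dates in the tables. Positions of genes come from GENCODE M21 and upstream sequences from RefSeq, both on GRCm38.

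The 13887 genes whose mean reached 1 FPKM were fitted on log2(FPKM + 1), with genotype as the only term, by the trended test of limma 3.58.1 under R 4.3.3, two-sided, at a Benjamini-Hochberg adjusted p under 0.05. Fold changes on this scale understate the change of low genes. Residual degrees of freedom were 2 and prior ones 4.89. The code was tested on simulated data. The tables hold no counts. Between 57.1% and 59.7% of 290 to 322 low values per library lay no more than 0.15 from whole fragments at the estimated depth. Chance gives 30.0% at a depth fixed in advance. The depth was chosen as the best fit to these same values, so chance would give more than 30.0% here. Counts could not be recovered and depths are estimates. Shares within a library were compared by an exact permutation test.

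Members and lists were chosen with earlier results of these data known. Named were the 7 members, Anp32b, up to 4 genes of smallest p in each list (2 for cell types), and the nearest profiles; all other named genes, among them the remaining AP-2 genes, were chosen after their values were seen. The alternatives tried were another pseudocount, 2 other filters, the replicate number as a block, 3 other scalings, a fold threshold and the omission of each library. Python 3.11.15 with pandas 2.3.3 was used.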

Additional observations from a re-analysis of the deposited data

How the results depend on the processing

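Of 75 member results under the alternatives, 72 kept their direction and their side of the threshold, 3 lost the call and 0 reversed. The losses were Tfap2b with TPM and Lmx1b without knockout replicate 1 and without knockout replicate 2. With the replicate block, 5 members were higher and 2 lower, and 4781 genes were higher and 3047 lower in all, so no member call changed. Deviations of same-numbered libraries from their group means correlated at 0.044 across genes (Spearman 0.036), and the numbers are not stated to mark a shared source. When 2 libraries had to reach 5 FPKM, 3 members were higher, since Foxc2 and Lmx1b were not tested. With a fold threshold of at least 1 on the log2(FPKM + 1) scale, 2 members were higher and 0 lower, and 211 genes were higher and 115 lower in all. With TPM 1 member was lower, and 6926 genes were higher and 1667 lower in all, against 4654 and 2932 with FPKM. Median-of-ratios scaling gave 3879 higher and 3791 lower, and the sum without crystallin and erythroid genes 3533 and 4330. The difference in the sum of the 7 relative to mesenchyme markers was −1.46 percentage points, and −2.72 against markers that are not collagens, whose sum is smaller by construction. Without 1 library, between 4 and 5 members were higher and 2 lower, between 3373 and 3937 genes were higher in all, and between 2042 and 2288 lower. The share of Foxc1 in its pair then differed by −6.02 to −3.86 percentage points. Depth limits Lmx1b and Foxc2 most, since wild-type values of Lmx1b stand for an estimated 44 to 191 fragments, depending on the transcript counted.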

Other observations

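Forkhead genes, Foxc1 and Foxc2 among them, were taken as a family by symbol after the data were seen and moved both ways. The genes named here were chosen after their values were seen. Of 41 listed, 28 were tested, 17 of them higher and 5 lower, with a median log2 fold change of 0.25, and 20 higher and 5 lower with TPM. Over all genes 33.5% were higher and 21.1% lower, and 49.9% and 12% with TPM. Foxl2, a gene of eyelid mesenchyme and ovary, went from 4.13 and 5.03 FPKM to 8.72 and 8.76 FPKM (0.81, limma adjusted p = 0.00022). Foxe3, of the lens epithelium, fell from 10.67 and 9.67 FPKM to 1.86 and 1.53 FPKM (−2.05).

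Genes beside the members on the chromosomes were read for comparison, and some of those beside Foxc1, Foxc2 and Twist1 are named here. Foxc1 lies in a forkhead cluster with Foxq1, which rose from 2.87 and 2.09 FPKM to 5.0 and 4.59 FPKM (0.74), and with Foxf2, which had 2.31 and 2.15 FPKM and then 2.84 and 2.51 FPKM and was past the threshold only with TPM. Gmds, the nearest listed gene to Foxc1, at 8.95 kb, rose from 9.06 and 8.60 FPKM to 11.34 and 11.80 FPKM (0.35). Mylk4, at 890 kb, rose too (0.78). Beside Foxc2, Foxf1 and Foxl1 were below the level tested, and Mthfsd had 14.64 and 15.45 FPKM and then 14.68 and 15.64 FPKM. Hdac9, the nearest listed gene to Twist1, at 87.7 kb, had 5.11 and 4.98 FPKM and then 4.71 and 4.93 FPKM (−0.05, limma adjusted p = 0.479).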
